A study of Mus musculus with 8 samples.

Results

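Siglech plasmacytoid dendritic cells (pDCs) were chosen by measured values of the single-cell matrix, as the barcodes that held at least 800 detected genes, at most 20% mitochondrial unique molecular identifiers (UMIs), at least 3 Siglech UMIs, at least 2 Bst2 UMIs and fewer than 100 S100a8 UMIs per 10000 UMIs. Of 12564 deposited barcodes, 9261 passed the limits on genes and mitochondrial UMIs, and 151 of these were members, a share of 1.63% (exact 95% Clopper-Pearson interval 1.38 to 1.91%). They were set beside 792 monocyte-type barcodes, which held at least 1 Ccr2 UMI and no Siglech, and 930 B cell barcodes, which held at least 2 Ms4a1 UMIs. S100a8-rich barcodes (2813, neutrophil-type) were used as a rough guide to free RNA, the transcripts of lysed cells that enter every droplet. They are cells with transcripts of their own, and 6 neutrophil marker genes made up 27.9% of their UMIs. Their values are therefore not a direct measure of free RNA.

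The 8 samples of the series are labelled alike: tibia of untreated Mus musculus at 8 weeks (P56), MMP14 F/+ and COL10A1cre by genotype, with the reporters R26-tdT and Col1a1-2.3-GFP. Every group below therefore carries 1 floxed Mmp14 allele, a Cre driven by Col10a1, the collagen X gene of hypertrophic chondrocytes, the Cre-dependent tdTomato reporter, and a GFP driven by a Col1a1 fragment active in osteoblasts. Trabecular bone with part of the growth plate was taken from 3 mice, the early trypsin suspensions rich in blood cells were discarded, and the cells of a later dispase and collagenase digest were pooled with no sort. The labels call the cells chondro-osteogenic, and the study set aside clusters that expressed Ptprc (CD45) before its own analysis, whereas Ptprc was seen in 146 of the 151 members.

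The pool came as 1 matrix whose barcodes carry no mouse or sample of origin. There are thus no replicates, no test between groups was possible, and every interval below covers counting error only. The members held 1247457 UMIs in all. Their totals ran from 2923 to 30697 UMIs per barcode with a median of 6558, against medians of 8228 in monocyte-type, 3032.5 in B cell and 6380 in neutrophil-type barcodes. A floor of 3 Siglech UMIs favours deeply read barcodes, and shares of barcodes are therefore also given after each barcode was thinned to 1500 UMIs.

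Plasmacytoid dendritic cells arise in the marrow from myeloid and lymphoid precursors alike, look like small plasma cells and circulate through blood and lymphoid tissue. They are known for sensing viral RNA and DNA inside endosomes through Toll-like receptors 7 and 9 and for answering with large amounts of type I interferon. The E protein Tcf4 (E2-2) holds their identity, and Siglech is a sialic acid-binding lectin that signals through the adaptor DAP12 (Tyrobp).

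Tcf4 binds E-boxes, of which CACCTG, or CAGGTG on the other strand, is one form. Promoter windows are shown for Siglech, the gene of the rule, and for Klk1, Ccr9 and Cd300c, the genes, among the 7 named genes with at least 70% of their UMIs in members, for which the RefSeq promoter table (GRCm38.p6, the build called mm10 in the files) held 1 start with no exon base in the window. Each run is the 250 bases before the start, 5′ to 3′ on the gene's strand, with every CANNTG in capitals. The Siglech window is chr7:55767934-55768183 on the plus strand, the Klk1 window chr7:44225110-44225359 on the plus strand, the Ccr9 window chr9:123766961-123767210 on the plus strand within the annotated gene, and the Cd300c window chr11:114960508-114960757 on the minus strand, also within the annotated gene.
Siglech: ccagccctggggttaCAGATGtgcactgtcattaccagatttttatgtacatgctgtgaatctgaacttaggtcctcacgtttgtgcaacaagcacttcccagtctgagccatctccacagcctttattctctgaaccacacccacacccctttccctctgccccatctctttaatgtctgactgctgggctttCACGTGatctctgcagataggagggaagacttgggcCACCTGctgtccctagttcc
Klk1: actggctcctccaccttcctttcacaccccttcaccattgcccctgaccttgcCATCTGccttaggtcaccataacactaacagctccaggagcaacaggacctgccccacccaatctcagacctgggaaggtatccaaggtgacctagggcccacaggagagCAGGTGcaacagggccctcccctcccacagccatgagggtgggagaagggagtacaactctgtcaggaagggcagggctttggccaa
Ccr9: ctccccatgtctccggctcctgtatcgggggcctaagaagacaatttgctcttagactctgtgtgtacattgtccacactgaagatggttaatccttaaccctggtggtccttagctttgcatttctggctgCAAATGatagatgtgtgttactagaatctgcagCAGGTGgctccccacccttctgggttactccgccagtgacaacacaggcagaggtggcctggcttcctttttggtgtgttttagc
Cd300c: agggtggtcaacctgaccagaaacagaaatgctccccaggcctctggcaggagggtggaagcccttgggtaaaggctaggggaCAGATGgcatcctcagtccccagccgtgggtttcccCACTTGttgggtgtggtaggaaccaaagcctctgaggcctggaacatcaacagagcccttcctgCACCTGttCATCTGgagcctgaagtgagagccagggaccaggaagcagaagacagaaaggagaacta

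Counted back from the start, the CACCTG of the Siglech window begins at base -20, the CAGGTG of Klk1 at -87, the CAGGTG of Ccr9 at -85 and the CACCTG of Cd300c at -67. The windows hold 3, 2, 2 and 4 CANNTG in the same order. The pattern CANNTG is the same on both strands, though the middle letters can differ, so each match counts for both. CACCTG or CAGGTG, which are forms of CANNTG, occurred in 17.2% of all 32851 windows of the table, in 14% of the windows of genes compared with both groups, and in 21.8% of the 110 windows that belong to the 78 matched genes of the 105 that were at least 4-fold higher than both. For CANNTG the same shares were 66.2%, 55.0% and 62.7%. A match is a string of letters in a window and was not tested as a binding site.

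Siglech and Bst2 chose the members and are given as a description. A member held 3 to 42 Siglech UMIs (median 11) and 3 to 51 Bst2 UMIs (median 25), and 1 member stood exactly at the Siglech floor, with 24 Bst2, 10 Tcf4 and 15 Ccr9 UMIs. Just below that floor were 13 barcodes with 2 Siglech UMIs, in which Tcf4 reached 1092 CPM (UMIs of a gene per 1000000 summed UMIs), Bst2 2092 CPM and Ccr9 91.7 CPM. Another 2 barcodes failed on Bst2 alone, with Tcf4 at 1624 CPM and Ccr9 at 598 CPM. The S100a8 limit set aside 6 barcodes with 618 to 2022 S100a8 UMIs each, in which Tcf4 was at 583 CPM and Ccr9 at 435 CPM, while the highest member stood at 93.2 S100a8 UMIs per 10000.

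The name was checked against further markers. Of 14 other pDC markers, a member held a median of 11 (lowest 2, highest 14), whereas medians of 2, 4 and 1 were seen in monocyte-type, B cell and neutrophil-type barcodes. These counts were not taken at equal depth. As a share of summed UMIs the 14 made up 0.93% in members, against 0.29%, 0.33% and 0.084%. The 14 include Ly6d and Spib, as high in B cells, and Plac8, higher in monocytes. The T cell genes Cd3e and Cd3d were at 0, which allows up to 2.40 CPM, or 1.99% of barcodes with a captured UMI, and sets no limit on the share of cells that express them, and 143 of 151 members held none of the 6 T and NK markers. Every member held at least 1 of 6 neutrophil markers (median 3) and at least 1 of 4 red cell markers (median 2), and 89 held none of the 5 monocyte markers. Red cell markers made up at least 1% of the UMIs in 10 members, skeletal markers in 4, neutrophil markers in 3 and monocyte markers in 1, 18 barcodes in all, and 133 members were left without them. Leaving these out lowered the haemoglobin gene Hbb-bs from 27729 to 911 CPM, the cartilage collagen Col2a1 from 1725 to 28.7 CPM and lysozyme, Lyz2, from 328 to 134 CPM. Their part in the results below was not tested beyond the values given without them.

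Tcf4, the E protein of pDC identity, was not used by the rule and was seen throughout the members. It was seen in all 151 members at 1.35 to 61.6 UMIs per 10000, with a median of 12.2. The median was 0 in monocyte-type, B cell and neutrophil-type barcodes, although their highest barcodes reached 23.8, 17.7 and 11.0 UMIs per 10000 and so overlapped the members. Summed, Tcf4 stood at 1233 CPM against 71.4 CPM in monocyte-type and 138 CPM in B cell barcodes, log2 ratios of 4.11 (95% interval 3.98 to 4.25) and 3.16 (3.02 to 3.30). After thinning, 82.0% of members still held a Tcf4 UMI, against 10.3%, 16.8% and 2.39% in the 3 other groups. The members, 1.63% of filtered barcodes, held 17.5% of all Tcf4 UMIs.

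**Figure D1:**
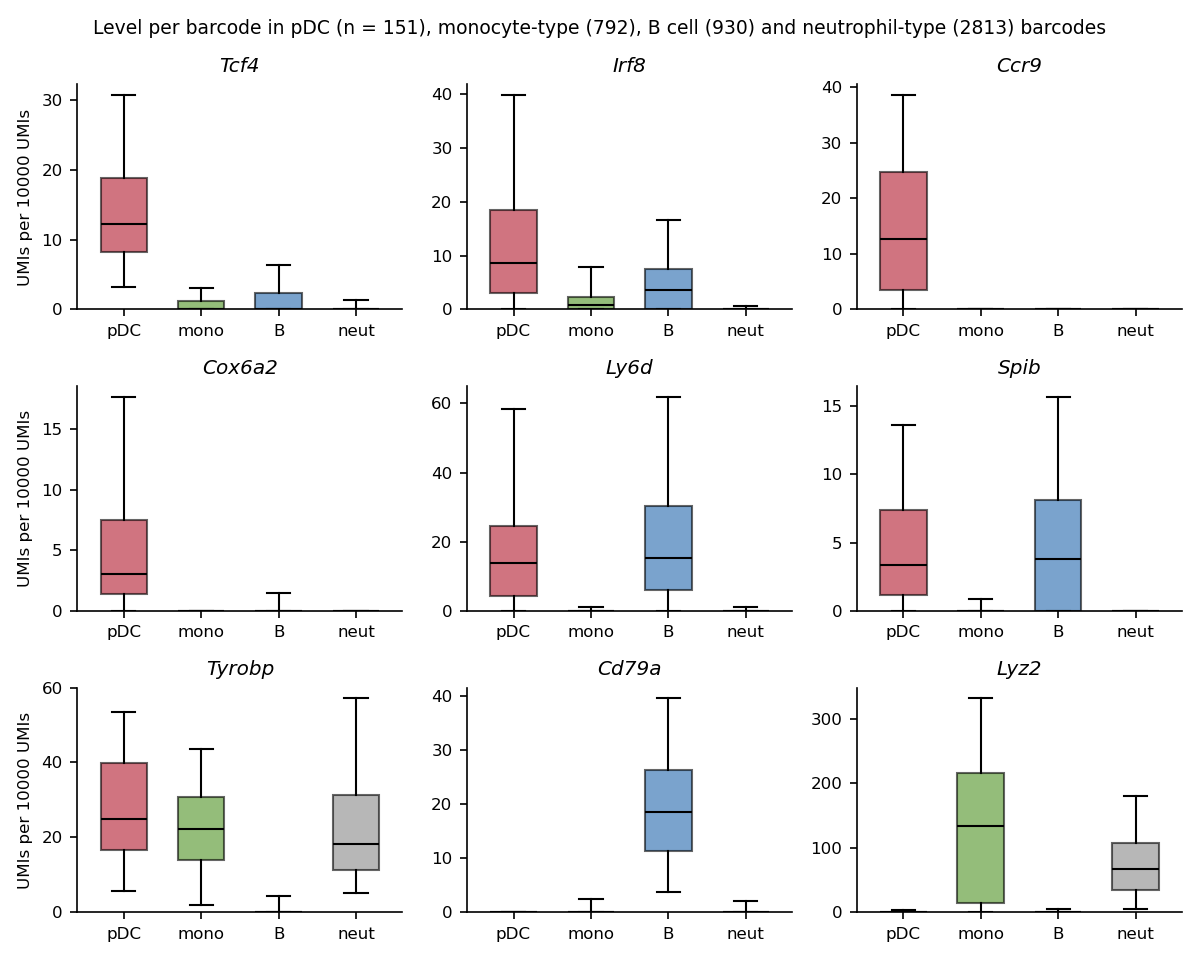
UMIs per 10000 UMIs of a barcode for 9 genes (1 panel each, linear axis from 0) in pDC, monocyte-type, B cell and neutrophil-type barcodes, with boxes from the lower to the upper quartile, a line at the median and whiskers from the 5th to the 95th percentile. Tcf4 and Ccr9 have medians of 12.2 and 12.6 in pDCs and of 0 elsewhere, Ly6d and Spib are as high in B cells, Tyrobp is high in all but B cells, and the median pDC holds neither Cd79a nor Lyz2.

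Across genes, 7502 were compared with monocyte-type barcodes, and 262 of these (3.49%) were at least 4-fold higher and 348 (4.64%) at least 4-fold lower in the members. Of 6352 genes compared with B cell barcodes, 273 (4.3%) were at least 4-fold higher and 144 (2.27%) at least 4-fold lower. The median log2 ratio over all genes was 0.00 in the second comparison and -0.00 in the first, so that the scale was centred alike. Among the 6233 genes compared with both, 105 were at least 4-fold higher than both, 44.3% of those higher than monocytes and 38.7% of those higher than B cells. Only 11 were lower than both, 7 were higher than monocytes and lower than B cells, and 4 the reverse. Pearson's r between summed log levels across these genes, which share a pool and are not independent, was 0.866 for pDCs and monocytes, 0.842 for pDCs and B cells, and 0.831 for monocytes and B cells. A gene could enter a comparison through either group, and one seen in under 10% of members entered only through the other group, in which it was then seen more often, so that its place on the lower side is fixed in part. That held for 15 of the 28 interferon-stimulated and 12 of the 27 monocyte genes compared with monocytes and for 12 of the 21 B cell genes compared with B cells. A gene seen in under 10% of the other group, in the same way, entered only through the members. Its place on the higher side is then fixed in part. Ccr9, seen in 2.90% of monocyte-type and 2.58% of B cell barcodes, is an example, and such genes were not counted. The higher and lower counts over all genes and of every list below, and the list medians, are descriptions for this reason. The number of lower genes seen in under 10% of members is given beside them where there were any. The shares above, 3.49% and 4.64% against monocytes and 4.3% and 2.27% against B cells, are the background for each list's higher and lower counts.

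**Figure D2:**
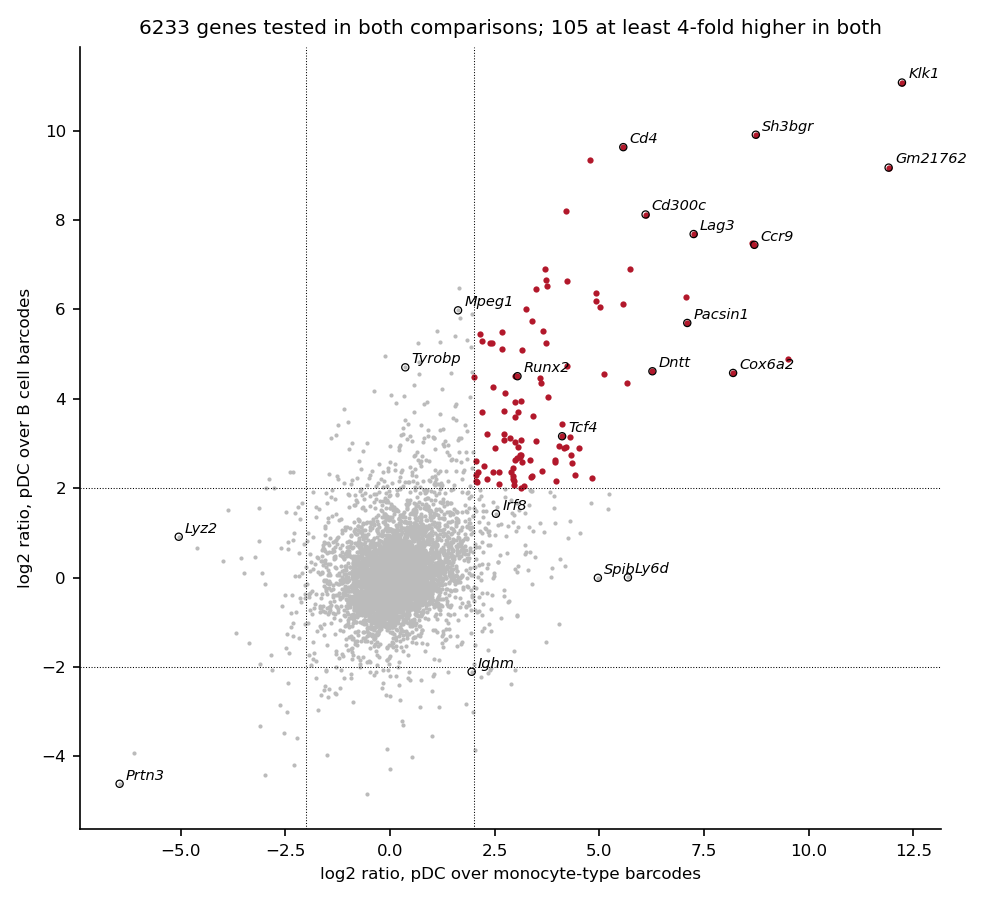
Each point is 1 of 6233 genes, with the log2 ratio of pDC over monocyte-type barcodes on the x axis and of pDC over B cell barcodes on the y axis. The 105 genes at least 4-fold higher than both (red) sit in the upper right, where Klk1, Ccr9 and Cd300c lie, while Spib and Ly6d lie to the right at B cell ratios of -0.01 and 0.00. Genes at 0 in a group are placed with 0.5 UMI added.

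A small set of genes was close to private to the members. Klk1, a tissue kallikrein, had 333 UMIs in 86 of 151 members and 0 in all 3 other groups, at least 797-fold over monocyte-type and at least 359-fold over B cell barcodes when 3 UMIs are allowed for a group at 0. Members carried 97.1% of all Klk1 UMIs of the filtered matrix. Gm21762, a predicted gene, had 267 UMIs in 81 members, 0 in monocytes, at least 639-fold, and 1 UMI in B cells, with 93.7% of its UMIs in members. Kallikrein genes form a family of near-identical copies, and reads of Klk1 and its neighbours may have been divided among them: Klk1b27 was also at 0 in both other groups, with 32 UMIs in 21 members.

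Ccr9, the receptor for the gut and thymus chemokine Ccl25, followed. Its 1535 UMIs lay in 132 members, at 0 to 68.4 UMIs per 10000 with a median of 12.6, and the highest barcode of the other groups reached 5.42. The level was 1230.5 CPM in members, 2.90 CPM in monocytes, 6.95 CPM in B cells and 0.40 CPM in neutrophil-type barcodes. The log2 ratios were 8.70 (8.17 to 9.35) and 7.44 (6.93 to 8.06), and 88.8% of all Ccr9 UMIs were in members. At 1500 UMIs, 70% of members held a Ccr9 UMI, against at most 1.12% elsewhere. The 13 barcodes with 2 Siglech UMIs, by contrast, had Ccr9 at 91.7 CPM beside Tcf4 at 1092 CPM.

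Other named genes had high ratios too. Cox6a2, a muscle-type subunit of cytochrome c oxidase, was at 441 CPM in 118 members against 1.45 and 18.4 CPM, log2 ratios of 8.19 (7.46 to 9.16) and 4.58 (4.23 to 4.96). Cd300c, an activating receptor of the CD300 family, was at 172 CPM in 102 members (6.10 and 8.12), and Pacsin1, which bends membranes in endocytosis, at 160 CPM in 103 (7.10 and 5.70). Lag3, an inhibitory receptor that binds MHC class II, was at 76.2 CPM in 66 members (7.25 and 7.68). The calcium pump Atp2a1, at 66.5 CPM in 57 members (8.64 and 7.49), the progestin receptor family gene Paqr5, at 66.5 CPM in 57 (7.06 and 6.27), and Sh3bgr, at 118.6 CPM in 81 (8.74 over monocytes), also had high ratios. Havcr1 (Tim-1), a phosphatidylserine receptor, was at 0 in monocytes and at 40.1 CPM in 44 members, at least 120-fold higher. Between 72.2 and 87.4% of all UMIs of Sh3bgr, Cd300c, Havcr1 and Atp2a1 were in members, against 69.9% for Pacsin1, 54.6% for Lag3, 49.0% for Cox6a2 and 46.1% for Paqr5.

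Among the highest ratios over B cells were those of Cd209d, a C-type lectin related to DC-SIGN, at 80.2 CPM in 41 members and at 0 in B cells, at least 108-fold higher, and the GTPase-activating gene Srgap3, at 108 CPM in 83 members (log2 ratio 8.19, 6.27 to 14.1). Smim5, a small membrane protein gene, was at 132 CPM (6.89) and Lefty1, an antagonist of Nodal, at 44.1 CPM (6.90). These genes were higher than in monocytes too, with log2 ratios of 4.77 for Cd209d, 4.21 for Srgap3, 3.70 for Smim5 and 5.73 for Lefty1. Cd209d belongs to a cluster of similar lectin genes, and the assignment of its reads is uncertain to that extent. On the lower side were the IgM Fc receptor Fcmr, with 3 UMIs in members and 328 CPM in B cells (-6.87), the adaptor Bank1 (-6.70), the Notch regulator Dtx1 (-6.29), the desaturase Scd1 (-5.54), Gm8369 and the light chain genes Iglc1 and Iglc2. Cd79a, the signalling chain of the B cell receptor, was at 26.5 CPM in 7 members and at 1571 CPM in B cells (-5.87).

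Among the lowest ratios against monocytes, Ifi211, an interferon-inducible DNA-binding protein gene, and the phospholipase Plcb1 were at 0 in members, which allows 2.40 CPM, against 59.2 and 49.4 CPM in monocytes. Coagulation factor genes F10 and F13a1 were at 4.01 and 12 CPM against 298 and 538 CPM, and complement C3 at 5.61 against 279 CPM. Gpr141, an orphan receptor, had 1 UMI in members and 156 CPM in monocytes (-7.02), and Igsf6 stood at 5.61 against 212 CPM. Prtn3, proteinase 3 of granulocyte and monocyte precursors, was at 14.4 against 1303 CPM (-6.46). The monocyte-type group is mixed here: 109 of its 792 barcodes held at least 10 Prtn3 UMIs and 83 held a UMI of Gzma or Ccl5, while 708 held Lyz2.

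Surface genes of the pDC list were mostly high. Of its 24 genes, 21 were compared with monocytes and 15 were at least 4-fold higher, 1 lower (seen in under 10% of members), with a median log2 ratio of 3.73, and 14 of 20 were higher than B cells, 0 lower, with a median of 4.18. Among genes with at least 200 UMIs these medians were 2.53 and 3.16. Cd7, an immunoglobulin-family receptor of early lymphoid cells, was at 238 CPM in 119 members (3.75 and 6.52). The collagen receptor Lair1, which inhibits, was at 270 CPM in 126 members (3.48 and 6.45), and the Ly49 family gene Klra17 at 86.6 CPM in 64 (3.73 and 6.65). Tetraspanin Tspan13 was at 482 CPM in 143 members (3.33 and 1.97). Within 4-fold were 5 genes of the list against monocytes and 6 against B cells. Among the exceptions were Ly6c2, at 733 CPM against 1464 CPM in monocytes, and the inhibitory receptor Lilrb4a, at 16.8 against 128 CPM (-2.89).

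Ly6d, a GPI-anchored antigen of cells on the lymphoid path, was shared with B cells. It stood at 0 to 105 UMIs per 10000 in members with a median of 13.9, and at 0 to 158 in B cells with a median of 15.4. The sums were 1642 and 1638 CPM, a log2 ratio of 0.00 (-0.07 to 0.07), while monocytes were at 31.9 CPM (5.68). The distributions of pDCs and B cells overlapped over nearly their whole range.

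The coreceptors Cd4 and Cd8a were seen in some members only. Cd4 was at 97.8 CPM in 53 members, at 2.01 CPM in monocytes and at 0 in B cells, at least 131-fold higher. Cd8a was at 23.2 CPM in 22 members, and its partner Cd8b1 at 21.6 CPM in 16. Both Cd4 and Cd8a were seen in 12 barcodes, Cd4 alone in 41 and Cd8a alone in 10. Cd3e, Cd3d and Cd3g were at 0.

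Transcription factors split into those shared with B cells and those that were not. Of 16 compared with monocytes, 7 were at least 4-fold higher and 1 lower, with a median of 1.42, and of 15 compared with B cells 3 were higher and 1 lower, with a median of 0.79. Spib, an Ets factor needed by pDCs and B cells, was at 395 CPM in members, 397 CPM in B cells and 12.6 CPM in monocytes (4.96 and -0.01). Bcl11a, a zinc finger repressor upstream of the lymphoid and pDC fates, was at 179, 121 and 17.5 CPM (3.35 over monocytes), and Mef2c at 574, 536 and 128 CPM. Irf8, the interferon regulatory factor of dendritic cells and B cells, was at 1115, 415 and 193 CPM (2.53 over monocytes and 1.43 over B cells).

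Runx2, best known as the master factor of osteoblasts, was higher in members than in the 3 other groups. It was at 222 CPM in 114 members, at 0 to 12 UMIs per 10000, against 26.9 CPM in monocytes, 9.68 CPM in B cells and 11.9 CPM in neutrophil-type barcodes. The log2 ratios were 3.04 (2.79 to 3.30) and 4.50 (4.03 to 5.04), and at equal depth 28.2% of members held a UMI against 3.53%, 0.77% and 2.16%. Members carried 14.3% of the Runx2 UMIs of the whole filtered matrix, with every cell type included. Mycl, a Myc family gene of dendritic cells, was at 38.5 CPM in 38 members against 0.67 CPM in monocytes (5.74), and Irf7, the factor that amplifies interferon, was at 53.7 CPM, as in monocytes (49.7 CPM, 0.12) and above B cells (9.18 CPM, 2.54). Nfil3 was lower than in monocytes (-2.26) and Ets1 lower than in B cells (-2.12).

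**Figure D3:**
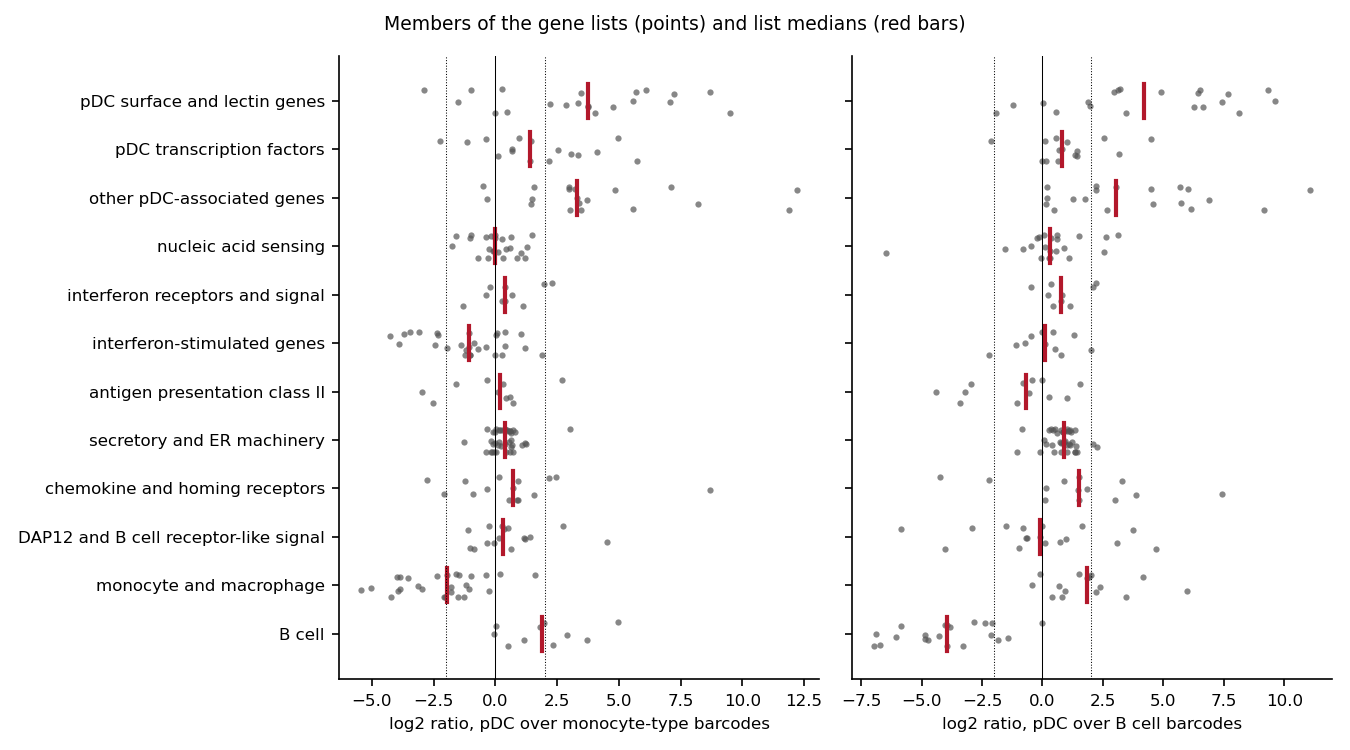
Log2 ratios of pDC over monocyte-type (left) and over B cell (right) barcodes for the compared members of 12 gene lists, with a bar at each list's median. The pDC surface list has medians of 3.73 and 4.18, the monocyte list lies at -1.94 on the left and the B cell list at -3.96 on the right, and the nucleic acid sensing list lies at -0.01 and 0.31.

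Of the other genes linked to pDCs, 14 of 19 were at least 4-fold higher than monocytes and 13 of 19 higher than B cells, with medians of 3.29 and 3.04 and none lower. Cathepsin L, Ctsl, an endosomal protease, was at 632 CPM in 133 members (2.99 and 4.50). The adaptor Sla2 was at 181 CPM (5.56 and 6.12), Tex2 at 284 CPM (3.39 and 5.74), the ribonuclease Rnase6 at 435 CPM (3.03 and 2.68), and the pyrimidine-degrading enzyme Upb1 at 198 CPM (3.24 and 6.00). Plac8 was high in members at 1952 CPM but was higher still in monocytes at 2478 CPM. These lists, like all those below, were drawn up with pDC biology and earlier results of these data known, so their direction is no independent evidence.

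Of 24 compared genes that sense nucleic acids or pass the signal on, 0 were at least 4-fold higher or lower than in monocytes, with a median of -0.01, and 3 of 22 were higher and 1 lower (seen in under 10% of members) than in B cells, with a median of 0.31. Tlr7, the receptor for single-stranded RNA, had 55 UMIs in 37 members and 44.1 CPM, against 21.3 CPM in monocytes (1.06, 0.59 to 1.49) and 4.96 CPM in B cells (3.13, 2.39 to 3.97). Tlr9, the receptor for unmethylated DNA, had 5 UMIs in 5 members, 4.01 CPM, and 3.97 CPM in B cells, so no difference was detectable at this depth. Tlr12, which pairs with Tlr11 against profilin, was at 20.8 CPM in 21 members and at 0.45 and 0.74 CPM elsewhere. It had too few UMIs for the comparison across genes.

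Proteins that serve these receptors were better covered. Unc93b1, which carries endosomal Toll-like receptors from the endoplasmic reticulum, was at 357 CPM in 143 members against 229 and 239 CPM (0.64 and 0.58). The endosomal nuclease Pld4 was at 402 CPM in 141 members, 221 CPM in monocytes and 64.5 CPM in B cells (0.86 and 2.64). Slc15a4, a lysosomal transporter needed for Tlr7 and Tlr9 signals in pDCs, was at 86.6, 35.9 and 81.4 CPM. Ddx58 (RIG-I), a cytoplasmic RNA sensor, was at 0 in members and at 35.2 CPM in B cells.

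Transcripts of the interferon genes themselves were all but absent from the counts. Of 21 interferon ligand genes, 18 were at 0 in members, and the 14 Ifna genes together had 0 UMIs in members and 1 UMI in all 9261 filtered barcodes. A count of 0 in the members allows up to 2.40 CPM. The members' only ligand UMIs were 4, in 2 barcodes. The receptor chains were read well: Ifnar1 was at 258 CPM in 122 members against 66.1 and 118 CPM (1.97 and 1.13), and Ifnar2 at 265 CPM in 121 against 121 and 61.5 CPM (1.14 and 2.10). Stat2, which carries the signal on, was at 64.1 CPM in 51 members against 13 and 13.9 CPM (2.31 and 2.20). It was the 1 gene of 10 receptor and signal genes at least 4-fold higher than in monocytes, with 0 lower and a median of 0.39, and 2 of 9 were higher than in B cells, with 0 lower and a median of 0.78.

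The interferon-stimulated genes summed to 987 CPM in members, 1827 CPM in monocytes and 804 CPM in B cells. Of 28 compared with monocytes, 15 were seen in under 10% of members. Of the 28, 0 were at least 4-fold higher and 8, all among those 15, lower, beside 4.64% lower over all genes. Of 11 compared with B cells 0 were higher and 1 lower. The medians were -1.05 and 0.09. The DNA sensor gene Ifi204 was at 4.81 against 100 CPM in monocytes (-4.27), the chemokine Cxcl10 at 17.6 against 154 CPM (-3.09) and Zbp1 at 3.21 against 39.3 CPM (-3.45). Ifit1, Ifit3 and Rtp4 were at 0 in members and at 2.23, 4.47 and 8.27 CPM in monocytes. Trim30a, a brake on Toll-like receptor signals, was at 159 CPM in 93 members against 69.8 and 40.0 CPM (1.19 and 1.99). Ifi27l2a was at 324 CPM in 103 members, at 682 CPM in monocytes and 226 CPM in B cells.

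Antigen presentation genes varied widely among members. H2-Aa, a chain of MHC class II, was at 1108 CPM in members, 675 CPM in monocytes and 916 CPM in B cells (0.72 and 0.27), and was seen in 99 of 151 members at 0 to 62.8 UMIs per 10000 (median 6.69). At equal depth 52.2% of members held it, against 14.6%, 45.1% and 2.34%. Cd74, the invariant chain, was at 2256, 1487 and 3995 CPM (0.60 and -0.82). H2-Aa and Cd74 were seen together in 96 members, Cd74 alone in 21 and neither in 31.

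Of the list, 1 of 10 genes was at least 4-fold higher and 2 lower than in monocytes, with a median of 0.19, and 0 of 12 were higher and 4 lower than in B cells, with a median of -0.68. All of the 2 and 4 lower genes were seen in under 10% of members. The median against B cells was 0.21 when at least 1600 genes per barcode were asked for. H2-Oa, which tempers peptide loading, was the higher gene, at 42.5 against 6.48 CPM (2.71). The costimulatory gene Cd40 was at 2.40 CPM against 22.1 and 59.6 CPM (-2.98 and -4.41). Ciita, the class II transactivator, was at 5.61 CPM against 46.2 CPM in B cells (-2.94).

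Genes of conventional dendritic cells were seen in part. Of 11 compared with monocytes 4 were at least 4-fold higher and 1 lower (seen in under 10% of members), and of 9 compared with B cells 5 were higher and 1 lower, with medians of 0.66 and 3.21. The second was 0.88 with a gene floor of 1600, -0.28 among genes with at least 200 UMIs, and 1.57 without the members in which another cell type's markers made up 1% of UMIs. The lectin Clec10a was at 76.2 CPM in 57 members against 24.1 and 1.24 CPM, Cd209a (DC-SIGN) at 51.3 CPM in 30 against 32.6 and 1.24 CPM, and Clec9a, a receptor for dead cells, at 21.6 CPM in 19 against 3.02 CPM and 0. Clec10a and Cd209a were seen together in 13 members, Clec10a alone in 44 and Cd209a alone in 17. Zbtb46, which defines the conventional lineage, had 7 UMIs in 6 members. The integrin Itgax (CD11c) was at 37.7 CPM in 38 members (2.14 and 5.45).

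Of 14 listed genes of early lymphocytes, 5 were seen in at least 10% of members, and 2, Ptcra and Vpreb2, were at 0. Of the list 3 of 5 were at least 4-fold higher than in monocytes and 0 lower, with a median of 2.98, and 2 of 8 were higher and 3 lower than in B cells, with a median of -0.33. The 3 lower genes were all seen in under 10% of members. Among genes with at least 200 UMIs the medians were 1.69 and -1.26, and with a gene floor of 1600 the second was -1.63. Dntt, the terminal transferase of lymphocyte precursors, was at 124 CPM in 73 members, at 0 to 10.9 UMIs per 10000, against 1.56, 4.96 and 3.28 CPM in monocyte-type, B cell and neutrophil-type barcodes (log2 ratios over the first and second of 6.27, 5.52 to 7.22, and 4.61, 3.97 to 5.4). At equal depth 18.3% of members held Dntt, against at most 0.37% in the other groups compared. Members held only 10.4% of the Dntt UMIs of all filtered barcodes, so most lay in barcodes outside the members. Il7r, the interleukin 7 receptor, was at 254 CPM in 112 members against 32.2 and 40.9 CPM (2.98 and 2.63), and Blnk, an adaptor of the B cell receptor, at 405 CPM in 132 against 17.5 and 203 CPM (4.53 and 0.99). The recombinase gene Rag1, by contrast, had 7 UMIs in 5 members, 5.61 CPM, near the 5.21 CPM of neutrophil-type barcodes, and Rag2 had 1 UMI.

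Immunoglobulin transcripts were present in part. Ighm, the mu heavy chain, was in all 151 members at 0.55 to 36.1 UMIs per 10000 (median 8.71), and in 71.8% of them at equal depth, against 11.9% of neutrophil-type barcodes of like depth. The sum was 902 CPM, above monocytes at 234 CPM (1.95) and below B cells at 3888 CPM (-2.11). Iglc3, a lambda constant gene, was at 114 CPM in 62 members against 8.6 CPM in monocytes and 308 CPM in B cells (3.72 and -1.43), but it is a near copy of Iglc1 and Iglc2, at 6.41 and 11.2 CPM, and reads may have been divided among the 3. Of the kappa gene Igkc, 76.5% of the UMIs lay in 1 member. Pax5, the factor that holds B cell identity, was at 12.8 CPM against 350 CPM in B cells. Of the B cell list, 18 of 21 genes were at least 4-fold lower than in B cells, 12 of them seen in under 10% of members, 0 higher, with a median of -3.96, while 4 of 10 were higher than in monocytes.

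Among signalling genes, Tyrobp (DAP12), the adaptor of Siglech, was at 2439 CPM in 150 members, at 1895 CPM in monocytes and at 93.6 CPM in B cells (0.36 and 4.70). Members ran from 0 to 72.9 UMIs per 10000 with a median of 24.8, against a median of 22.3 in monocytes, so those groups overlapped throughout, and of 0 in B cells. Fcer1g, a related adaptor, was at 576, 1240 and 42.4 CPM, lower than in monocytes by less than 4-fold. The kinase Fyn was at 362 CPM in 130 members against 54.7 and 42.9 CPM (2.73 and 3.07), and Syk, Lyn and Ptpn6 differed by less than 4-fold from both groups. In the list as a whole 14 of 16 genes were within 4-fold of monocytes and 11 of 17 within 4-fold of B cells. The others were 2 higher than monocytes, beside 3.49% over all genes, and 3 higher and 3 lower than B cells, beside 4.3% and 2.27%, with 1 of the lower genes seen in under 10% of members.

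Receptors for cytokines and for homing were compared next. Flt3, the receptor whose ligand drives dendritic cell growth, was at 125 CPM in 89 members against 19.7 and 3.47 CPM (2.67 and 5.12). Csf2rb2, a beta chain for interleukin 3, was at 139 CPM (1.96 and 5.89), but it is a near copy of Csf2rb, at 229 CPM. Of the 16 and 14 cytokine receptors compared, 4 and 6 were at least 4-fold higher and 1 and 1 lower, with medians of 0.30 and 1.68, the second 0.42 among genes with at least 200 UMIs. Among homing receptors 3 of 15 were higher and 2 lower than in monocytes, and 4 of 13 higher and 2 lower than in B cells, with medians of 0.70 and 1.49, and 2 and 1 of the lower genes were seen in under 10% of members. Selplg (PSGL-1), which binds selectins, was at 501 CPM in 143 members (1.58 and 3.89), and Cxcr4, which retains cells in the marrow, at 308 CPM, against 189 and 281 CPM. S1pr1, the receptor for leaving tissue into blood, was at 7.21 CPM, near the 7.77 CPM of neutrophil-type barcodes and below the 145 CPM of B cells (-4.25).

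The median log2 ratio of 39 genes of the secretory and endoplasmic reticulum list was 0.88 over B cells and 0.37 over monocytes, with 2 and 1 at least 4-fold higher, near the 4.3% and 3.49% over all genes, and 0 lower in both. Xbp1, the factor of the unfolded protein response that builds the secretory apparatus, was at 270 CPM in 121 members against 116 and 62.5 CPM (1.22 and 2.11). The chaperone gene Hspa5 (BiP) was at 1113, 1270 and 557 CPM. Mzb1, an endoplasmic reticulum protein of antibody- and interferon-secreting cells, was at 93.0 CPM in 67 members against 11.3 and 169 CPM (3.04 and -0.85). Jchain, which links antibodies in plasma cells, was at 59.3 CPM in 9 members with 87.8% of its UMIs in 1 of them, and Prdm1, the plasma cell factor, at 2.40 CPM in 3. Of the plasma cell list 1 of 6 was at least 4-fold higher and 1 lower than in monocytes, and 1 of 5 higher and 1 lower than in B cells, beside 3.49%, 4.64%, 4.3% and 2.27% over all genes, with medians of 1.32 and 0.03. The gene lower than in monocytes was seen in under 10% of members.

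Of the monocyte list 13 of 27 genes were at least 4-fold lower than in monocytes and 0 higher, with a median of -1.94, and 6 of the lower genes were seen in under 10% of members, while 5 of 15 were higher than in B cells and 0 lower, with a median of 1.86 that was 0.59 with a gene floor of 1600. Lyz2 was at 328 CPM in 42 members against 10839 CPM in monocytes (-5.05), and 62.6% of its UMIs in members lay in 1 barcode. The median member held no Lyz2. Mpeg1 (perforin-2), a pore-forming gene of phagocytes, went the other way, at 946 CPM in 150 members against 307 and 14.9 CPM (1.62 and 5.98). Of the neutrophil list 6 of 13 were at least 4-fold lower than in monocytes, 3 of them seen in under 10% of members, with a median of -1.88 that was -0.60 with no S100a8 limit, among them Mpo, at 12.8 against 922 CPM, and Elane, at 9.62 against 700 CPM. Against B cells 2 of 9 were lower and 0 higher, with a median of -0.64. Of the T and NK list, Klrd1 (CD94), an NK lectin, was at 81.0 CPM in 67 members (1.96 and 4.60), while Gzmb was at 0, and 2 of the 3 genes compared with monocytes were lower, both seen in under 10% of members, with a median of -3.57 that was 3.78 against monocytes with at least 2 Ccr2 and 1 Csf1r UMIs and 0.12 with no S100a8 limit. Klrd1 was the 1 gene of that list compared with B cells.

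The skeletal and stromal list holds endothelial adhesion genes that were seen in members. Pecam1 (CD31) was at 88.2 CPM in 65 members against 21.8 and 52.4 CPM (2.02 and 0.76). Cdh5 (VE-cadherin) had 35 UMIs in 27 members, 28.1 CPM, against 0.22 CPM in monocytes and 13.2 CPM in B cells. Of that list 2 of 5 genes were at least 4-fold higher and 1 lower than in monocytes, and 0 of 6 either way against B cells. Its medians were 1.88 and 0.59 with all members and -4.01 and -1.85 in the 133 left without other-cell markers. The red cell list had 0 of 6 genes past 4-fold in either comparison, with medians of 1.14 and 0.01 that were -3.78 and -4.81 in the 133.

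The genes that varied most between members, by the variance of thinned counts over their mean, were mostly genes of red cells, cartilage and bone. The haemoglobin genes Hbb-bs (318), Hba-a1 (124), Hba-a2 (99.3) and Hbb-bt (88.8) led, against a median of 1.10 over 1051 genes, and were followed by Col2a1, 1500015O10Rik, Mgp, Ibsp and Prg4, genes of cartilage and bone, and Igkc. Hbb-bs ran from 0.92 to 2964 UMIs per 10000 with a median of 9.39. Col2a1 was in 26 members, and 83.6% of its UMIs lay in 1 of them. Single members weighed on other genes of this ranking too. Without a gene's top member, the log2 ratio over monocytes fell to 0.30 for Ibsp, 0.22 for Mgp and 0.26 for Igkc.

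Some members were in division. Cells in cycle were defined as those with a UMI for 2 or more of the genes Top2a, Mki67 and Birc5, which untangle, coat and segregate chromosomes. They numbered 19 of 151, or 12.6% (7.75 to 19%), of which 5 held exactly 2 of the genes, while 25 of the other 132 held 1. Of the 16 proliferation genes 0 were past 4-fold against monocytes and 0 of 13 against B cells, with medians of -0.70 and -0.03. The share was 28.3% in monocyte-type, 7.42% in B cell and 27.7% in neutrophil-type barcodes. None of these shares was taken at equal depth, and the groups differed in depth. Cycling members were deeper, with a median of 13928 UMIs against 6431, which raises the chance of seeing any gene, and the levels below are therefore in CPM. The split uses measured values of the same barcodes, and the values are a description.

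MHC class II was lower in the cycling members. H2-Aa was at 157 CPM (113 to 212) in 6 of 19 cycling members and at 1367 CPM (1295 to 1443) in 93 of the 132 others, a log2 ratio of -3.11. Cd74 was at 408 against 2760 CPM (-2.75). The summed class II level of Cd74, H2-Aa, H2-Ab1 and H2-Eb1 ran from 0 to 278 UMIs per 10000 over all members with a median of 29.2, and 27 members had none. Its median was 1.17 in cycling members, with a highest value of 85.1, and 43.7 in the others, whose lowest value was 0, so the sets overlapped. By depth, a split chosen after the values were seen, the median was 9.15 in the 19 other members over 10000 UMIs and 50.6 in the 113 at or under it, and 0.54 and 1.86 in the 13 and 6 cycling members so divided, so that the median was lower in the deeper barcodes of both sets. Genes of other cells differed in both directions: Hbb-bs was at 45866 CPM in cycling members, with 32.8% of it in 1 barcode, against 22780 CPM in the others, whereas Prg4 was at 3.74 against 1423 CPM, Lyz2 at 22.4 against 411 CPM, Igkc at 221 against 935 CPM and S100a8 at 187 against 402 CPM. The part of depth and of these cells in the differences by cycling was not tested.

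Other surface and effector genes lay the same way. Klk1 was at 11.2 CPM in 2 of 19 cycling members and at 337 CPM in 84 of 132 others (-4.69). Cd4 was seen in 1 and 52 (-3.72), Ccr9 was at 389 against 1460 CPM (-1.90), Ctsl at 142 against 765 CPM (-2.41), Lair1 at 78.5 against 322 CPM (-2.01), and P2ry14, a receptor for UDP-sugars, at 11.2 against 133 CPM (-3.35). Siglech itself, a gene of the rule, was at 520 against 1735 CPM. Dntt was at 56.1 against 143 CPM (-1.31), with 73.3% of the cycling UMIs in 1 barcode. These genes were not split by depth, and the part of depth in their differences was not tested. Of the other members over 10000 UMIs, some held no Klk1 UMI and some did.

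Some genes did not follow that order. Ly6d stood at 1656 and 1638 CPM (0.02, -0.14 to 0.17), Flt3 at 120 and 127 CPM (-0.06, -0.69 to 0.49), Ighm at 867 and 911 CPM (-0.07, -0.29 to 0.14), Bcl11a at 191 and 176 CPM (0.13, -0.36 to 0.58) and Runx2 at 269 and 209 CPM (0.37, -0.04 to 0.76). Tcf4 was at 800 and 1351 CPM (-0.75) and Irf8 at 856 and 1186 CPM (-0.47). A few genes, chosen after their values were seen, were higher in the cycling members: Cd24a, a glycoprotein of immature blood cells, at 426 against 102 CPM (2.06), the progenitor factor Myb at 116 against 35.7 CPM (1.70), and Sox4 at 232 against 126 CPM (0.89). Stmn1, a microtubule regulator of dividing cells, was at 1548 against 69.4 CPM (4.47). The stem and progenitor list was not counted by cycling. Over all members 1 of its 6 compared genes was at least 4-fold higher than in monocytes. Against B cells it was 1 of 5, with 0 lower in both and medians of 0.03 and 0.42. In the cycling set 30.7% of Cd24a, 35.5% of Myb and 24.2% of Sox4 UMIs came from 1 barcode. Over all members, cycling or not, Cd24a was at 172 CPM, and at 125 CPM in the 133 left without other-cell markers. Myb went from 52.9 to 58.4 CPM and Sox4 from 148 to 176 CPM.

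**Figure D4:**
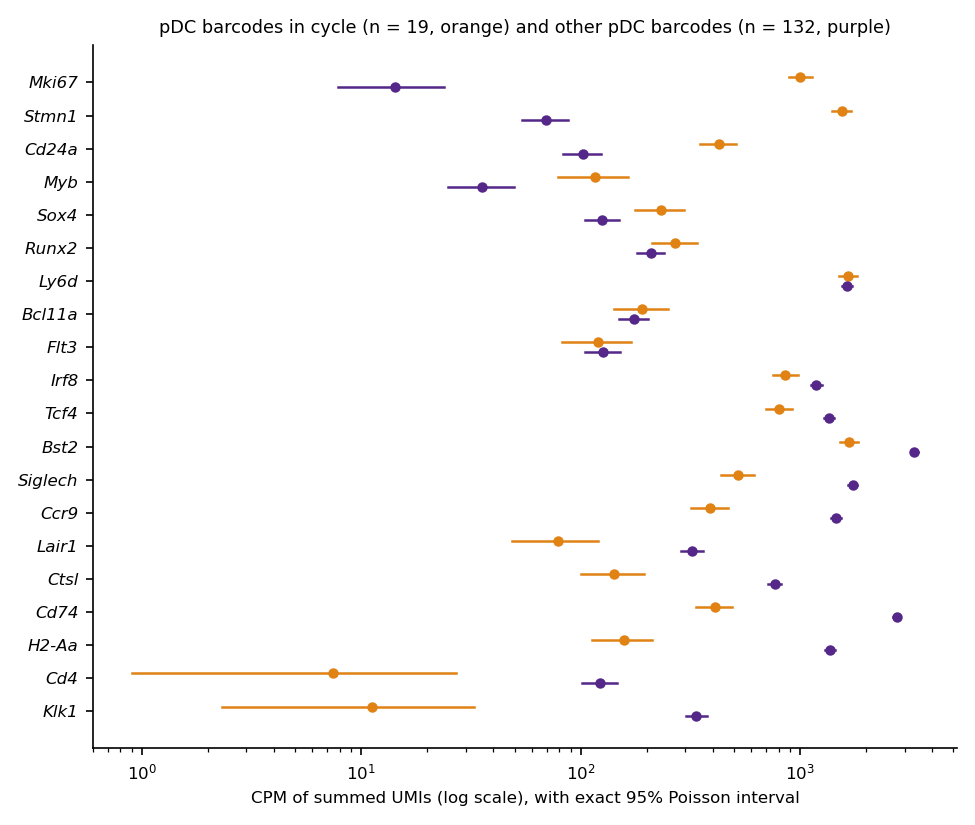
Level in CPM (log axis) of 20 genes in the 19 pDC barcodes in cycle (orange) and the 132 others (purple), with exact 95% Poisson intervals. H2-Aa, Cd74 and Klk1 lie far lower in the cycling set, Ly6d and Flt3 coincide, and Stmn1 and Cd24a lie higher.

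**Figure D5:**
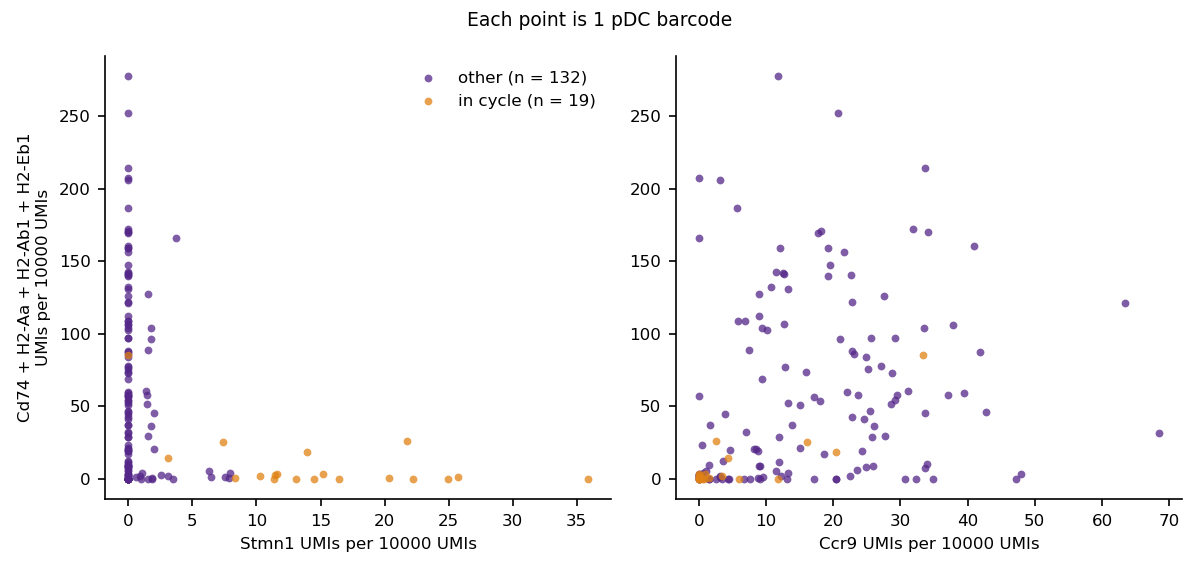
Each point is 1 of 151 pDC barcodes, with the summed UMIs of Cd74, H2-Aa, H2-Ab1 and H2-Eb1 per 10000 UMIs on the y axis and Stmn1 (left) or Ccr9 (right) UMIs per 10000 UMIs on the x axis, in orange for barcodes in cycle (n = 19) and purple for the others (n = 132). Cycling barcodes gather near 0 on the y axis (median 1.17, against 43.7 in the others).

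Individual members also differed in genes of activation, which were chosen for mention after their values were seen. The chemokine Ccl4 was at 366 CPM, but it came from 45 members, with 32.8% of its UMIs in 1 of them and a highest value of 218 UMIs per 10000. Ccl3 was seen in 14 members, 11 of which also held Ccl4. The early activation antigen Cd69, which also holds cells in tissue, was at 430 CPM in 75 members, at 0 to 47.0 UMIs per 10000, against 71.7 and 336 CPM. Of 14 stress and immediate early genes compared with monocytes 0 were at least 4-fold higher and 1 lower (seen in under 10% of members), with a median of -0.80, and of 12 compared with B cells 0 were either, with a median of 0.47. Fos was at 243 CPM in members against 434 and 141 CPM.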

How the data were processed

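Cells of 3 mice (8 labelled samples, 1 group) were run as 1 pool on the 10x Genomics platform. Per the labels, the authors aligned reads to mm10 and to exogenous sequences with Cell Ranger (3.1.0), and the deposited values are raw UMI counts per gene and barcode, where a UMI tags 1 captured molecule near its 3′ end. The counts were summed per group of barcodes and divided by the group's total to give CPM, with exact 95% Poisson intervals, using Python 3.11.15, numpy 2.4.6, scipy 1.17.1, pandas 2.3.3 and scanpy 1.11.5. Log2 ratios were taken with 0.5 UMI added to each sum, and their exact conditional intervals from the counts, for genes whose summed UMIs in the pair of groups reached 50 and that were seen in 10% or more of the barcodes of either group, and called at 4-fold. Genes were keyed by symbol, with the identifier added for the 71 rows that share a symbol. Barcodes were thinned to 1500 UMIs, averaged over 100 seeded draws; 1 B cell barcode was shallower and was left out. S100a8-rich barcodes were kept out of both comparison groups, and so were 12 with both Ccr2 and Ms4a1. Rule genes were left out of the counts. Named genes were the 12 highest and 8 lowest ratios per comparison among genes with at least 50 UMIs in the higher group and UMIs in at least 25% of its barcodes, the 10 most variable genes, and list members seen in at least 10% of pDC barcodes or at 0 where they define another cell type. Every other named gene (among them Ptprc, Tlr9, Ddx58, Rag1, Zbtb46, Ciita, Cd40, S1pr1, Pax5, Lilrb4a, P2ry14, Ccl3, Ccl4, Cd69, Jchain, Prdm1, Elane and the interferon-stimulated genes at low counts) was named after its values were seen. The members and gene lists were chosen with earlier results of these data known. Doublets were kept in the main values and marked with Scrublet as an alternative. The scripts were tested on simulated data. Depth limits a gene at 0 in the members to 2.40 CPM. Promoter windows came from RefSeq, in which no entry was used for Gm21762, Sh3bgr and Havcr1. The Atp2a1 window was searched but is not shown. Items withheld from this text are not reported here.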

Additional observations from a re-analysis of the deposited data

Results flagged for a closer look

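A signal outside the comparisons was seen in the exogenous sequences. WPRE, the viral element at the end of the tdTomato reporter transcript, had 236 UMIs in 103 of 151 pDC barcodes, a share of 68.2% (60.1 to 75.5%), against 45.6% of monocyte-type, 17.6% of B cell and 32.6% of neutrophil-type barcodes, with median depths of 6558, 8228, 3032.5 and 6380 UMIs. In CPM of mouse UMIs the levels were 189 (166 to 215), 70.5, 69.5 and 54.1, and 165 in pDCs without the barcode with most, which held 33 UMIs. It was the 1 pDC barcode above 14 WPRE UMIs, and 43 held a single UMI. tdTomato itself had 6 UMIs in 2 pDC barcodes, and GFP and Cre had 0, which allows up to 1.99% of barcodes with a captured UMI and sets no limit on the share of cells that express them. What underlies the WPRE level was not tested.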

How the results depend on the processing

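Each value was recomputed under 20 alternatives, 2 of them chosen after seeing the data (members with at least 1% of other-cell marker UMIs left out, and cycling members left out). The number of members and the counts of genes at 4-fold stayed within 1.5 times in 79 of 85 cases, list medians within 0.5 in 737 of 823, and log2 ratios of named genes within their interval in 903 of 1140, and 32 of 931 recomputed calls on named genes were lost. Other floors and limits gave 132 to 164 members, and Scrublet marked 345 barcodes (3.73%), 4 of them members. With at least 200 UMIs per gene, which leaves fewer genes, 109 genes were higher than in monocytes and 102 higher than in B cells. Leaving out members with 2 UMIs of Cd79a, Cd3e, Ngp or Hbb-bs left 2 members, since Hbb-bs was in every member, and gave 1199 higher and 175 lower genes against monocytes and 850 higher against B cells. It also reversed log2 ratios over monocytes to -0.22 for 1500015O10Rik, -0.36 for Ibsp, -0.25 for Igkc and -0.49 for Mgp, and over B cells to -2.79 for 1500015O10Rik, -0.70 for Ibsp and -0.82 for Prg4. Without members rich in other-cell markers, Ibsp was at -3.07 and Mgp at -0.43 over monocytes, and 1500015O10Rik at -2.02 and Ibsp at -3.41 over B cells. Without the member with most Ibsp UMIs, Ibsp was at -0.039 over B cells. With at least 200 UMIs the median of the conventional dendritic list over B cells was -0.28, with fewer genes compared. With monocytes of at least 2 Ccr2 and 1 Csf1r UMIs the median of the T and NK list was 3.78, against -3.57. The plasma cell median over B cells was -0.85 with at least 200 UMIs, against 0.03, and the proliferation median over B cells -0.996 with a gene floor of 1600 and -1.87 without cycling members, against -0.03. No paired analysis was possible because the samples form 1 pool with no replicate numbers to share. With 1 pool no value has a replicate check, and differences in genes with few UMIs, such as Tlr9, were not detectable at this depth.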
